A study of Mus musculus with 4 samples.

Results

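Clonal hematopoiesis genes are genes in which blood stem cells carry recurrent somatic mutations when a single clone expands in an otherwise normal marrow. RNA and open chromatin were followed at 9 of them, Dnmt3a, Tet2, Asxl1, Trp53, Ppm1d, Srsf2, Sf3b1, Ezh2 and Kmt2a, in hematopoietic stem and progenitor cells (HSPCs) of mouse bone marrow. The genes were taken by symbol as 9 of 32272 gene rows, and every peak within 50 kb of the span of a gene's annotated transcription starts was taken with it, 158 of 174339 peaks. All 9 genes passed the limit of 50 unique molecular identifiers (UMIs, counted RNA molecules), and 68 of the 158 peaks passed the limit of 1000 counts. No mutation was measured: the values are RNA levels and chromatin accessibility of the genes as they stand in these mice.

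The study compared wild type C57BL/6 male mice, 8 weeks of age per its methods, after 14 d of silk ligatures on the molars, a model of periodontitis (Lig), with unligated mice (Ctrl). Marrow of 5 mice was pooled for each condition, and lineage-negative, cKit-positive cells were sorted before nuclei were profiled by single-nucleus multiome sequencing, which reads RNA and transposase-accessible chromatin (ATAC) of the same nucleus. The labels give 1 RNA and 1 ATAC sample for Ctrl and likewise for Lig, 4 samples in all, so no group has a replicate. The deposited matrix holds both conditions under barcode suffixes 1 and 2, which no label ties to a condition, so they are called library 1 and library 2 here, were assigned to neither group, and were not compared as ligature against control.

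The proteins fall into a few well-known activities. Dnmt3a writes methyl groups onto cytosine and Tet2 oxidizes them, Ezh2 is the catalytic subunit of Polycomb repressive complex 2 and Asxl1 a partner of Polycomb-group enzymes, and Kmt2a methylates histone H3 at active genes, Hox genes among them. Trp53 (p53) arrests or kills cells with damaged DNA and the phosphatase Ppm1d, itself a p53 target, switches that response off, while Srsf2 and Sf3b1 are components of the splicing machinery that recognize exons and branch points. In blood, loss of Dnmt3a or Tet2 is known to favour stem cell self-renewal, and Ezh2 and Kmt2a are needed in lymphoid and stem cell development respectively.

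Chromatin regions that carry the main accessibility results are shown as reference sequence, so that the letters can be read beside the values. They are 4 peak centres of 300 bases, shown because the accessibility by class at Dnmt3a, Tet2 and Trp53 described below was measured there, and the promoters of Ezh2 and Kmt2a, the genes whose promoter and RNA varied most alike. All are GRCm38 sequence, the promoters from RefSeq (GRCm38.p6, which held a promoter for each of the 9 genes), printed 5′ to 3′ on the strand of the gene. Capitals mark matches, on either strand, to 10 short motifs that were searched: CCCNNGGG as the EBF core, CAGGTG as the E-protein form and CACGTG as the palindromic form of the E-box, GATAAG for GATA factors, GGAAGT for ETS factors, TTGCNNAA for C/EBP, TGTGGT for RUNX, TTCCCGC for E2F, GGGCGG for the box bound by Sp factors and CCAAT for NF-Y. Matches can overlap and are a description of the letters, not evidence of binding. The sequences follow, each with its coordinates.
Dnmt3a, intergenic peak past the 3′ end, chr12:3917801-3918100 (+): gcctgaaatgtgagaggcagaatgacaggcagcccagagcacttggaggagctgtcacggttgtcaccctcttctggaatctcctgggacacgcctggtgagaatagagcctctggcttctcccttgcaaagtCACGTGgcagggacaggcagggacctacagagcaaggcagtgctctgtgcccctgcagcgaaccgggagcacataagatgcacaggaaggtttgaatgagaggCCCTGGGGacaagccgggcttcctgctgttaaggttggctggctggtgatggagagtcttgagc
Dnmt3a, peak beside the internal start, chr12:3892759-3893058 (+): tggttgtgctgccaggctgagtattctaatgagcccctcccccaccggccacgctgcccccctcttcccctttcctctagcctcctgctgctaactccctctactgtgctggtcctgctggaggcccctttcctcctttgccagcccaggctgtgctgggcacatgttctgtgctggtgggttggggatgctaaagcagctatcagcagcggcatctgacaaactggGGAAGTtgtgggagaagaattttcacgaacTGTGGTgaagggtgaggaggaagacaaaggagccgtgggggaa
Tet2, intron peak, chr3:133525607-133525906 (-): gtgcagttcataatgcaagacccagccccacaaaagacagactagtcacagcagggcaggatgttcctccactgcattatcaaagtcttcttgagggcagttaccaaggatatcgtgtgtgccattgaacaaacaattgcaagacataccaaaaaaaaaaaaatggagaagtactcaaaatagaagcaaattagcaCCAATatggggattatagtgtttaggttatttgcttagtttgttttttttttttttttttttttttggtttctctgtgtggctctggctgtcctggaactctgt
Trp53, intron peak, chr11:69585870-69586169 (+): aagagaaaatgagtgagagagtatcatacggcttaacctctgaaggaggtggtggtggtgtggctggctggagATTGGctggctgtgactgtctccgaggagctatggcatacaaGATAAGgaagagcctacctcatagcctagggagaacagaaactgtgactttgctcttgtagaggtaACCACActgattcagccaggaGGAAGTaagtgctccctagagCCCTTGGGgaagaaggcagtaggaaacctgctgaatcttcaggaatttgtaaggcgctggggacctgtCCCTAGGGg
Ezh2, promoter, chr6:47594981-47595280 (-): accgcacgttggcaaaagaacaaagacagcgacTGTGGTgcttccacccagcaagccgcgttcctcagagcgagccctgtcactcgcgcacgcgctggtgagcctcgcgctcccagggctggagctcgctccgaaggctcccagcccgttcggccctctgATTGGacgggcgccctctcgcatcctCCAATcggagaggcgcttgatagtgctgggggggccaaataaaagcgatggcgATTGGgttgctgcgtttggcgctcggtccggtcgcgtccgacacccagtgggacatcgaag
Kmt2a, promoter, chr9:44881240-44881539 (-): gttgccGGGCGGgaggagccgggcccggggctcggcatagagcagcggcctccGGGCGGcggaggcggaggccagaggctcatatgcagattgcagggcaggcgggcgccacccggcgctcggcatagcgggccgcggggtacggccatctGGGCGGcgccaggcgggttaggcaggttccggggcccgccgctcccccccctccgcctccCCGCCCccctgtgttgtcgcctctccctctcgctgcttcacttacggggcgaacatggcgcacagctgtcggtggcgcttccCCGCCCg

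The centre of the Dnmt3a intergenic peak held 1 EBF core and 1 CACGTG, motifs found in 10.4% and 5.52% of the 174282 peak centres of the same length that had sequence. The peak beside the internal Dnmt3a start held 1 GGAAGT and 1 TGTGGT, letters present in 36.6% and 29.7% of all peak centres. The Tet2 intron peak held 1 CCAAT (31.0% of peak centres), and none of the other letters searched lay in that window. The Trp53 intron peak held the most matches of the 4 peak centres printed, among them 2 EBF cores and 1 GATAAG, the last present in 8.97% of peak centres. The Ezh2 promoter was CpG-rich, with 31 CpG and 64.3% GC, and held 3 CCAAT and 1 TGTGGT, found in 37.4% and 16.8% of the 32851 promoters in the table. The Kmt2a promoter held 36 CpG, 75.7% GC and 5 GGGCGG, and 35.7% of promoters hold at least 1 GGGCGG. The remaining motifs were found in 19.4% (CAGGTG), 14.2% (TTGCNNAA), 1.93% (TTCCCGC) and 13.5% (GGGCGG) of peak centres.

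Library 1 held 5905 kept nuclei with 10294527 UMIs and 118239764 peak counts. Library 2 held 7714 with 12537328 UMIs and 128699726 peak counts. Of 18961 barcodes, 13619 had at least 200 genes and 1000 to 50000 peak counts. The suffixes shared 146 barcode sequences, of which 72 were kept in both. A median nucleus held 1641 UMIs of 636 genes in library 1 and 1516.5 UMIs of 410 genes in library 2. The 3 annotated genes at the ribosomal RNA locus took 43.0% and 53.2% of UMIs, and expression is given as counts-per-million (CPM) of the UMIs outside that locus. Intervals in brackets are exact 95% intervals that cover counting error only. With 1 sample per condition and no sample behind each library, no test was possible and no p-value is given, and a gene or peak is said to differ where it passed a stated fold in both libraries.

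Nuclei were grouped into 20 clusters without using the 9 genes or their 158 peaks, and 13 classes were named from markers. The 9 classes with at least 200 nuclei in each library are the ones described: HSC-like (led by Mecom, Hlf, Prdm16 and Myct1), LMPP-like (lymphoid-primed multipotent progenitors, Dntt), pro-B-like (Ebf1, Blnk and Pax5), EryP-like (erythroid progenitors, Car1, Ank1 and Kel), GMP-like (granulocyte-monocyte progenitors, Ctsg and Elane), and 4 clusters that fit no marker list and are called by number. Clusters 0 and 1 were led by Nrg1, with Tnf, Met and F13a1 in the former and Gpr141 and Stxbp6 in the latter, cluster 4 by Ephb2, Col19a1, Ccnd1 and Runx2, and cluster 6 by Slc24a3, Epha7 and Mdga1. HSC-like nuclei numbered 343 and 432 in libraries 1 and 2, LMPP-like 436 and 512, pro-B-like 1038 and 512, EryP-like 339 and 326, and GMP-like 343 and 762. The pro-B-like class joins a cluster of 1174 nuclei, led by the genes named above, and one of 376 nuclei, led by Cacna1e, Ankrd33b, Lef1 and Igll1 among others. Their median UMIs per nucleus were 1.06 and 0.512 of the library median. They were pooled in all pro-B-like values and not compared. The pro-B-like share was 17.6% of nuclei in library 1 and 6.64% in library 2, so levels summed over all nuclei weight that class differently. Another 197 and 84 nuclei were B cell-like (Ms4a1, Igkc), a mature type that lineage depletion is meant to remove. They and the other small classes are largely left out of the descriptions by class, so ranks of classes below are among the 9. The small named classes do enter the range over the 13 named classes and the search for genes of similar pattern.

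The splicing factors, Ezh2 and Kmt2a gave the most RNA, and Ppm1d the least. Over all nuclei of libraries 1 and 2, Sf3b1 stood at 535 and 383 CPM (3135 and 2247 UMIs), Srsf2 at 528 and 524 CPM (3097 and 3075 UMIs), Ezh2 at 428 and 262 CPM (2509 and 1538 UMIs) and Kmt2a at 305 and 186 CPM (1788 and 1095 UMIs). Asxl1 followed at 187 and 122 CPM. Trp53 stood at 114 and 92.1 CPM, Dnmt3a at 102 [94 to 110] and 66.6 [60.1 to 73.5] CPM and Tet2 at 94.1 and 66.1 CPM. Ppm1d was lowest at 43.5 and 31.3 CPM, from 255 and 184 UMIs. Dnmt3a and Tet2, the pair acting on cytosine methylation, were thus of like abundance in both libraries.

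Per kb of gene span the order changed, because the genes run from 3.194 kb (Srsf2) to 108.437 kb (Dnmt3a). Srsf2 led with 165 and 164 CPM per kb, Sf3b1 and Trp53 came next with 12.6 and 9.04 and with 9.89 and 8.0 CPM per kb, and Dnmt3a came last with 0.940 and 0.614 CPM per kb. Nuclear RNA holds unspliced transcripts, so span was used as the length rather than that of the mature message. The opposite strand of 5 genes carries another annotated gene (Dnmt3aos at Dnmt3a, Gm42567 at Tet2, 2500004C02Rik at Asxl1, Mettl23 and Mfsd11 at Srsf2, AC061963.1 at Kmt2a), and reads of such overlaps cannot be told apart where the counting does not use strand. Trp53, Ppm1d, Sf3b1 and Ezh2 have no such overlap.

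Between the libraries, 8 genes were lower in library 2 and Srsf2 was nearly level, but most genes of the genome moved down on this scale too. The ratio of library 2 to library 1 was 0.612 [0.574 to 0.652] for Ezh2, 0.612 [0.567 to 0.660] for Kmt2a, 0.650 [0.591 to 0.715] for Asxl1 and 0.653 [0.573 to 0.743] for Dnmt3a. These 4 of 9 genes passed 1.5-fold, as did 31.6% of the 10539 genes with at least 50 UMIs. Tet2 (0.702), Sf3b1 (0.716), Ppm1d (0.721) and Trp53 (0.809) stayed inside 1.5-fold, and Srsf2 had a ratio of 0.991 [0.943 to 1.04].

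The median log2 ratio of all genes was -0.36 with the locus left out of the total, -0.64 with all genes as the total and -0.20 after median-of-ratios scaling. Relative to that median, Ezh2 and Kmt2a stood at -0.35 each, Dnmt3a and Asxl1 at -0.26 each, Tet2 at -0.15, Sf3b1 at -0.12, Ppm1d at -0.11, Trp53 at +0.05 and Srsf2 at +0.35 on the log2 scale. The sign of the unadjusted log2 ratio was negative under all 3 scalings for every gene but Srsf2, which was positive (0.15) after median-of-ratios scaling.

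The difference in class makeup was set aside by comparing the libraries within the 9 classes. Kmt2a, Ezh2, Asxl1 and Sf3b1 were lower in library 2 in 9 of 9 classes, Dnmt3a and Tet2 in 8, Ppm1d in 7, and Trp53 and Srsf2 in 6. The interval of the ratio lay below 1 in 7 classes for Sf3b1 and Kmt2a, in 5 for Asxl1 and Ezh2, in 4 for Tet2, in 3 for Dnmt3a, in 2 for Trp53 and in 0 for Ppm1d and Srsf2, and above 1 in 0 classes for all of them. With each class weighted alike, the ratio was 0.717 for Ezh2, 0.721 for Kmt2a, 0.722 for Dnmt3a, 0.697 for Asxl1, 0.657 for Tet2 and 0.977 for Srsf2, so Tet2 and Asxl1 were lowest on that measure. The medians of all genes within classes ran from -0.33 to -0.44 on the log2 scale, so most of these differences lie near what the other genes of the same class did. Kmt2a and Asxl1 lay below the median of the class in 7 of 9 classes, and Dnmt3a and Tet2 in 6. Ezh2, Trp53 and Ppm1d did so in 5, Sf3b1 in 4 and Srsf2 in 0.

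**Figure D1:**
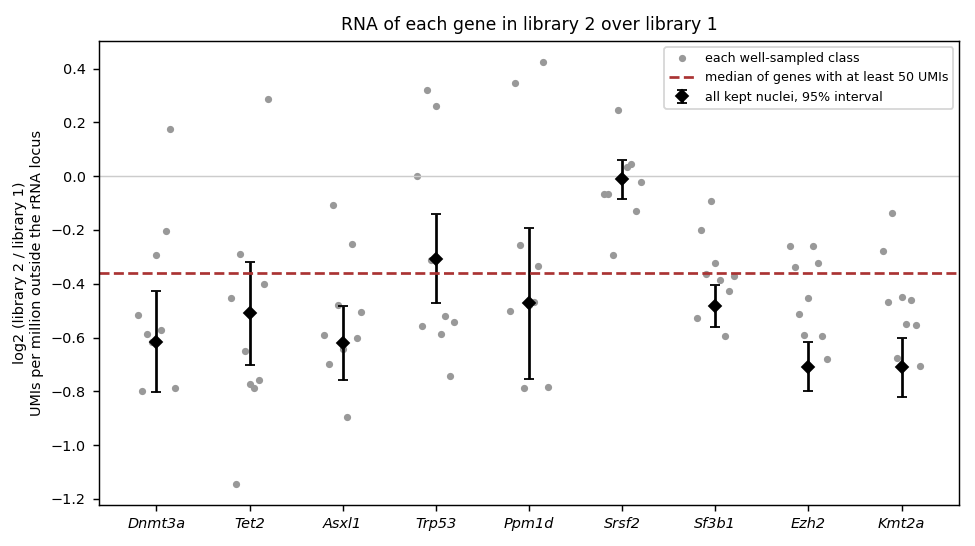
Log2 ratio of CPM in library 2 to library 1 for each of the 9 genes, with black diamonds and exact 95% counting intervals for all kept nuclei, grey points for the 9 classes with at least 200 nuclei per library, and a dashed line at -0.36, the median of genes with at least 50 UMIs. The diamond of Srsf2 lies near 0 and those of Ezh2 and Kmt2a lie lowest, below the dashed line.

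No gene of the 9 was raised or lowered 1.5-fold in HSC-like nuclei over all other nuclei in both libraries. Of all genes tested, 9.77% were at least 1.5-fold higher there and 8.0% at least 1.5-fold lower. Here and in the other classes, the 9 genes were left out of the clustering and the other genes were not. Dnmt3a came nearest, with 141 [104 to 187] and 94 [61.9 to 137] CPM in HSC-like nuclei and folds of 1.42 [1.04 to 1.90] and 1.44 [0.937 to 2.13]. It was the 1 gene that passed 1.5-fold there when nuclei needed 500 genes, when the peak count limits were applied to halved counts, at clustering resolution 0.4 and when the 9 genes and their peaks entered the clustering. Kmt2a was 1.11-fold (library 1) and 1.70-fold [1.35 to 2.11] (library 2) that of other nuclei. Ezh2 stood at 0.743-fold and 0.858-fold, with 323 and 226 CPM. The other nuclei of that ratio include pro-B-like nuclei, which had 921 and 574 CPM of Ezh2. Clusters 0 and 1 and GMP-like nuclei had less Ezh2 than HSC-like nuclei in both libraries. In HSC-like nuclei Tet2 had 89.3 and 73.1 CPM, 0.946-fold and 1.11-fold, and Sf3b1 had 524 and 407 CPM, 0.979-fold and 1.07-fold.

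The other named classes gave these calls. In pro-B-like nuclei Ezh2 and Kmt2a were at least 1.5-fold higher in both libraries (2 of 9 genes, background 10.2%) and Tet2 at least 1.5-fold lower (1 of 9, background 11.7%). In EryP-like nuclei Trp53 was higher (1 of 9, background 9.52%) and 0 were lower (background 12.6%). In LMPP-like nuclei Dnmt3a was higher (1 of 9, background 8.14%) and 0 were lower (background 7.62%). In GMP-like nuclei 0 were higher (background 3.75%) and 0 lower (background 12.9%).

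Among the numbered clusters, Dnmt3a was at least 1.5-fold lower in cluster 1 (1 of 9, background 12.8%) and Ppm1d in cluster 0 (1 of 9, background 11.2%). In clusters 0 and 1, 0 genes were higher (backgrounds 1.57% and 1.67%). Clusters 4 and 6 had 0 higher (backgrounds 2.26% and 2.16%) and 0 lower (backgrounds 8.41% and 8.88%). A range of 2-fold between the highest and the lowest named class in both libraries was seen for 8 of the 9 genes, all but Srsf2, but 97.7% of all genes, and 96.0% of the 4228 genes with as many UMIs as these, had such a range over 13 classes that include small ones. Over the 5 well-sampled named classes it was seen for 3 of the 9 (Dnmt3a, Trp53 and Ezh2), beside 35.8% of genes with as many UMIs, a share near the background.

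**Figure D2:**
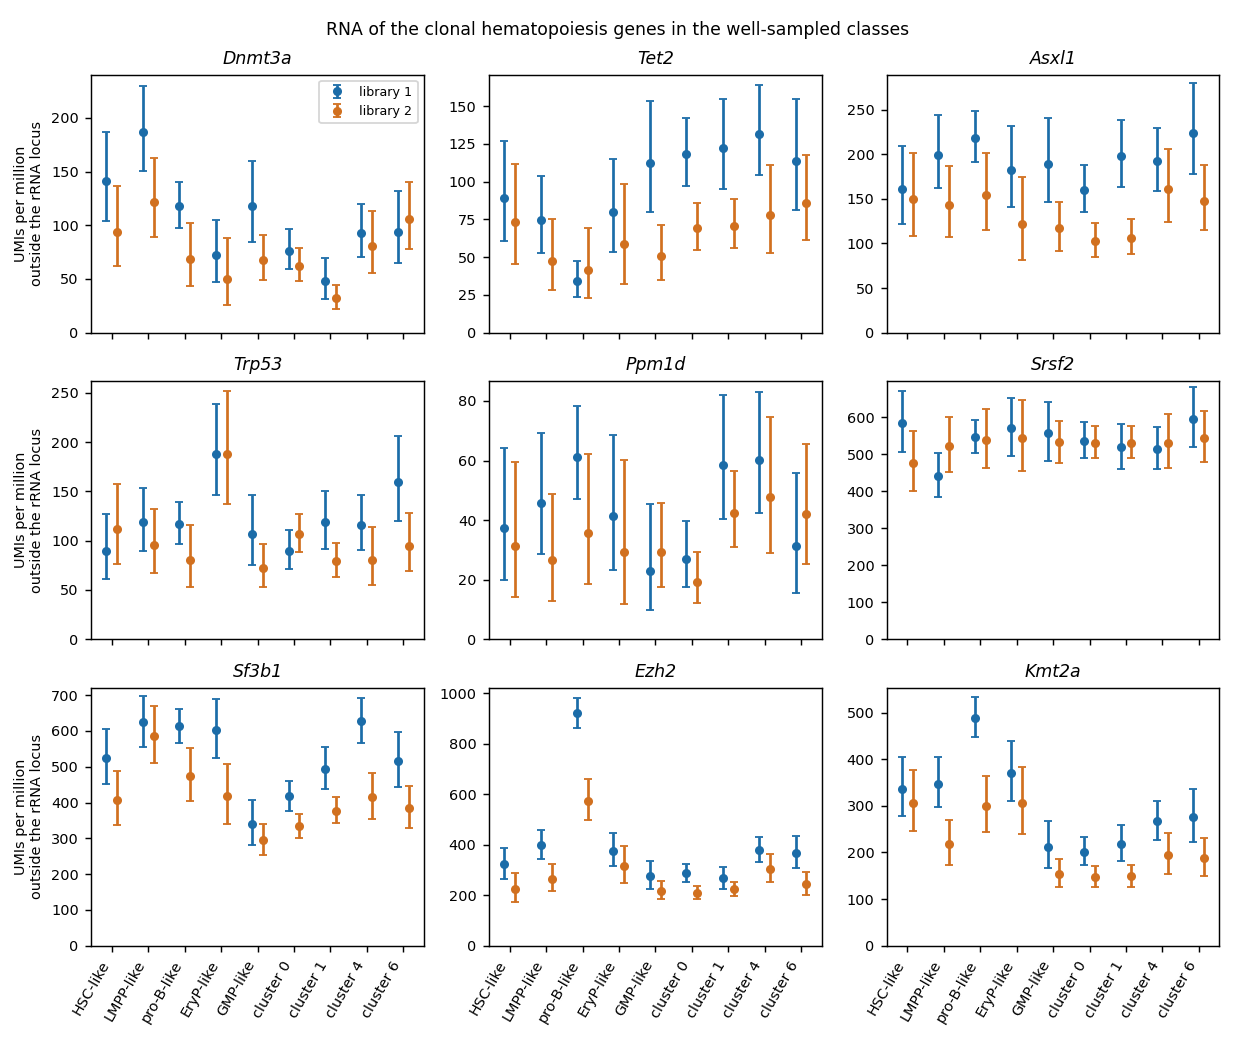
CPM of the 9 genes in the 9 classes with at least 200 nuclei per library, on linear axes from 0, library 1 in blue and library 2 in orange, with exact 95% counting intervals as bars. Ezh2 stands highest in pro-B-like nuclei, Dnmt3a in LMPP-like and Trp53 in EryP-like nuclei in both libraries, while Srsf2 varies least.

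Among classes with at least 200 nuclei in each library, Dnmt3a, the de novo methyltransferase, gave its highest level in LMPP-like nuclei. They had 187 [151 to 230] CPM in library 1 and 122 [89.3 to 163] CPM in library 2. This was 1.98-fold [1.57 to 2.49] and 1.94-fold [1.40 to 2.65] over all other nuclei. The small MkP-like class had 208 and 94.2 CPM, above LMPP-like nuclei in library 1 and below them in library 2. Among the larger classes HSC-like nuclei came next by the mean of both libraries. Cluster 6 (93.7 and 106 CPM), pro-B-like (117 and 68.1), GMP-like (118 and 67.6), cluster 4 (92.8 and 80.5), cluster 0 (76.2 and 62.1) and EryP-like nuclei (71.9 and 50.2) followed in CPM. Neighbours in this order had overlapping intervals in both libraries. Cluster 1 stood lowest of the larger classes at 47.8 [31.5 to 69.5] and 32.1 [22.4 to 44.7] CPM. This was 0.443-fold and 0.432-fold that of other nuclei, so the ends of the order were 3.92-fold and 3.79-fold apart. The small cDCP-like class had 15.4 and 30.3 CPM.

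The chromatin around Dnmt3a held 29 peaks, 18 of them tested, and their sum varied little between classes, with the highest of the 9 classes 1.38-fold and 1.40-fold over the lowest. Pro-B-like nuclei had 353 [341 to 364] and 345 [327 to 364] peak CPM over the window, beside 295 [291 to 300] and 272 [268 to 276] over all nuclei. Peak CPM here means counts-per-million of all peak counts of the same nuclei. Single peaks differed far more. The intergenic peak past the 3′ end (chr12:3917511-3918390) had 809 counts in pro-B-like nuclei of library 1 and 337 in library 2, or 40.5 [36.7 to 44.7] and 45.1 [38.5 to 52.4] peak CPM. All other nuclei together had 2.21 and 1.86, so the folds were 18.4 [14.8 to 22.9] and 24.2 [18.9 to 31.0]. The other 8 classes ranged from 0.696 (EryP-like, library 2) to 4.97 (LMPP-like, library 1) peak CPM. The peak thus stood far higher in pro-B-like nuclei than in these 8 classes, and Dnmt3a RNA in pro-B-like nuclei was 1.19-fold and 1.02-fold that of other nuclei.

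A peak beside the internal Dnmt3a start (chr12:3892472-3893344), within 1 kb of that start, was at least 2-fold higher in HSC-like nuclei in both libraries. It made 1 of the 68 tested peaks, beside 1.98% of the 56648 peaks tested in all. It had 22.6 [17.7 to 28.5] and 24.4 [19.1 to 30.7] peak CPM in HSC-like nuclei and 10.9 and 11.8 in all others, folds of 2.07 [1.60 to 2.64] and 2.06 [1.60 to 2.63]. It no longer passed when nuclei needed 500 genes, with halved peak counts, at resolution 0.4 and when nuclei with a count were summed in place of counts. Cluster 6 stood at 1.57-fold and 1.41-fold, and pro-B-like nuclei at 0.606-fold and 0.491-fold. The intron peak chr12:3855596-3856509 was 1.90-fold and 2.04-fold higher in pro-B-like nuclei. At the main Dnmt3a promoter (chr12:3806110-3806945) all nuclei held 30.7 and 29.2 peak CPM, and HSC-like nuclei were 1.40-fold and 1.03-fold the others.

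Tet2, which oxidizes methylated cytosine, was low in pro-B-like nuclei. Pro-B-like nuclei had 34.0 [23.7 to 47.3] and 41.5 [22.7 to 69.6] CPM, from 35 and 14 UMIs, or 0.318-fold [0.219 to 0.448] and 0.614-fold [0.332 to 1.04] that of other nuclei. Without correction between libraries the fold nearer 1 was 0.683, short of 1.5-fold. Among the larger classes the highest levels were in cluster 4 (132 and 78.0 CPM), cluster 6 (114 and 86.1), cluster 1 (122 and 70.7) and cluster 0 (118 and 69.1), whose intervals overlapped in both libraries. The small cMoP-like class, of 64 and 85 nuclei, stood above these with 184 and 133 CPM. This was 1.97-fold and 2.03-fold that of other nuclei. LMPP-like nuclei had 74.9 and 47.7 CPM, and their interval was apart from pro-B-like nuclei in library 1 alone.

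An intron peak of Tet2 (chr3:133525381-133526132) was low in the same class. It had 23 and 8 counts in pro-B-like nuclei, 1.15 [0.586 to 2.04] and 1.07 [0.292 to 2.74] peak CPM, against 5.24 and 7.12 in other nuclei, folds of 0.220 [0.110 to 0.395] and 0.150 [0.0408 to 0.388]. LMPP-like nuclei stood at 0.435-fold and 0.550-fold there and HSC-like nuclei at 0.604-fold and 0.511-fold, short of 2-fold in at least 1 library. It was 1.87-fold and 1.13-fold higher in cluster 0 and 1.46-fold and 1.36-fold in GMP-like nuclei. The promoter (chr3:133544160-133544807) held 23.1 and 23.5 peak CPM over all nuclei, and pro-B-like nuclei stood there at 0.947-fold and 0.961-fold. Over the 9 classes the promoter and the RNA of Tet2 had a Pearson r of -0.24 and -0.17, and the sum of all peaks in the window and the RNA had an r of 0.87 and 0.42, a description over 9 classes that share library and depth. Among the 9 classes that sum was lowest in pro-B-like nuclei (53.4 and 57.7 peak CPM), followed by HSC-like nuclei (60.6 and 63.0). The small MkP-like class had 51.3 and 50.8.

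Ezh2, the Polycomb methyltransferase, was raised in pro-B-like nuclei, with the largest fold of a class over other nuclei that any of the 9 genes reached in both libraries. Pro-B-like nuclei had 921 [863 to 981] CPM in library 1 and 574 [496 to 661] CPM in library 2, from 948 and 194 UMIs, which was 2.85-fold [2.63 to 3.09] and 2.37-fold [2.02 to 2.75] over all other nuclei. EryP-like nuclei came next by the mean of both libraries with 376 and 314 CPM (LMPP-like nuclei stood above them in library 1, at 399 CPM), and this step was the one neighbouring step of all 9 orders in which the intervals were apart in both libraries. The low end was shared by cluster 1 (267 and 223 CPM), cluster 0 (288 and 210) and GMP-like nuclei (276 and 218). The promoter peak (chr6:47594723-47595592) was raised in pro-B-like nuclei too, by less: 69.3 [64.3 to 74.7] and 71.1 [62.8 to 80.1] peak CPM against 53.8 and 51.6 elsewhere, folds of 1.29 [1.18 to 1.40] and 1.38 [1.21 to 1.56]. Promoter and RNA of Ezh2 had a Pearson r of 0.86 and 0.81 over the 9 classes. Pro-B-like nuclei stood far above the rest in RNA (a mean of 747 CPM against 345 in the next class), and r without them was not computed. An intergenic peak beyond the promoter (chr6:47620915-47621711) was at least 2-fold lower in both libraries in 3 classes. Its folds were 0.225 and 0.284 in HSC-like nuclei (8 and 11 counts), 0.491 and 0.469 in EryP-like nuclei, and 0.353 and 0.493 in pro-B-like nuclei, the class with the most Ezh2 RNA.

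Asxl1, the Polycomb-associated scaffold of a histone deubiquitinase, varied little. Its highest class exceeded its lowest 1.40-fold in library 1 and 1.57-fold in library 2. Cluster 6 was highest in library 1 (224 CPM) and cluster 4 in library 2 (161 CPM), and cluster 0 was lowest in both, at 160 [135 to 188] and 102 [84.7 to 123] CPM. Pro-B-like nuclei stood at 218 [191 to 249] and 154 [115 to 202] CPM. The order of classes had a Spearman rho of 0.40 between libraries. An intron peak (chr2:153350470-153351406) stood at 1.57-fold and 1.63-fold in GMP-like and at 0.517-fold in pro-B-like nuclei of both libraries, while the promoter (chr2:153345325-153346137) held 53 and 47.7 peak CPM and differed at most 1.47-fold between the 9 classes.

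Kmt2a, the histone methyltransferase that maintains Hox gene expression, was highest in pro-B-like, EryP-like and HSC-like nuclei by the mean of both libraries. In library 1 LMPP-like nuclei stood above HSC-like nuclei, at 1.15-fold against 1.11-fold that of other nuclei. Pro-B-like nuclei had 488 [447 to 533] and 299 [244 to 363] CPM, 1.84-fold [1.65 to 2.04] and 1.67-fold [1.34 to 2.05] over other nuclei. The lesser fold of both libraries was 1.43 after median-of-ratios scaling and 1.44 when nuclei needed 500 genes, short of 1.5-fold. EryP-like nuclei had 370 and 305 CPM and HSC-like nuclei 337 and 306 CPM, and in library 2 the intervals of all 3 classes overlapped. Cluster 0 was lowest at 202 and 148 CPM. The promoter (chr9:44880985-44881894) was highest in pro-B-like and EryP-like nuclei, with 101 [95.1 to 108] and 93.9 [84.4 to 104] peak CPM in pro-B-like nuclei, folds of 1.36 and 1.38, and 98.0 and 92.5 in EryP-like nuclei, folds of 1.26 and 1.35. HSC-like nuclei stood at 85.9 and 68.2 peak CPM there, folds of 1.10 and 0.981. Its r with RNA over the 9 classes was 0.86 and 0.76. In the window of Kmt2a, an intergenic peak whose nearest coding gene is Atp5l (chr9:44905451-44906276) was 3.69-fold [2.73 to 4.90] and 2.66-fold [1.72 to 3.95] higher in EryP-like nuclei and 1.75-fold and 2.34-fold in HSC-like nuclei.

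Trp53 was highest in EryP-like nuclei. EryP-like nuclei had 188 [146 to 238] CPM in library 1 and 188 [137 to 252] CPM in library 2, from 68 and 45 UMIs, folds of 1.72 [1.32 to 2.22] and 2.14 [1.54 to 2.90]. The other 8 classes lay between 72.2 (GMP-like, library 2) and 159 CPM (cluster 6, library 1) and kept no order between libraries, with a Spearman rho of 0.05 over the 9. An intron peak of Trp53 (chr11:69585567-69586472) was also highest in EryP-like nuclei, with 34.6 [28.3 to 42.0] and 23.7 [17.6 to 31.1] peak CPM against 13.9 and 14.9 elsewhere, folds of 2.49 [2.01 to 3.06] and 1.59 [1.18 to 2.11]. That peak passed 2-fold in library 1 alone. The peak over the annotated Trp53 start (chr11:69580013-69580806) held 28.9 [27.6 to 30.3] and 28.1 [26.9 to 29.5] peak CPM over all nuclei. A stronger peak 628 bases from that start on the Wrap53 side (chr11:69578895-69579731) held 51.6 and 46.9 peak CPM and differed at most 1.43-fold between the 9 classes. The window holds starts of 7 coding genes, and the peak over the start of Atp1b2 (chr11:69605529-69606402) was the one there that passed 2-fold in EryP-like nuclei, at 2.72 and 2.06.

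Ppm1d, the phosphatase that counters p53, had few UMIs per class. Cluster 0 stood low at 26.8 [17.4 to 39.6] and 19.2 [12.1 to 29.1] CPM, from 25 and 22 UMIs, folds of 0.575 [0.365 to 0.871] and 0.562 [0.343 to 0.880]. Pro-B-like nuclei had 61.2 and 35.5 CPM and cluster 4 had 60.2 and 47.8 CPM. A peak 602 bases from the start of a further annotated transcript and 1522 bases from the main start (chr11:85312766-85313493) was 3.12-fold [2.41 to 4.01] and 2.41-fold [1.59 to 3.53] higher in pro-B-like nuclei, with 205 and 61 counts there. The promoter itself (chr11:85310738-85311646) held 56.0 and 50.3 peak CPM.

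Srsf2 and Sf3b1, the splicing factors, were both abundant but differed in how evenly they were expressed. Srsf2 ran from 441 (LMPP-like) to 596 CPM (cluster 6) in library 1 and from 477 (HSC-like) to 545 CPM (cluster 6) in library 2, ranges of 1.35-fold and 1.14-fold, and in library 2 the intervals of the highest and the lowest class overlapped. Sf3b1 was lowest in GMP-like nuclei in both libraries, at 339 [281 to 406] and 295 [255 to 340] CPM, 0.620-fold [0.511 to 0.745] and 0.750-fold [0.643 to 0.870] that of other nuclei. LMPP-like nuclei had 624 and 586 CPM of Sf3b1, 1.18-fold and 1.59-fold. The order of the classes for Sf3b1 had a Spearman rho of 0.90 between libraries, the highest of the 9 genes. The Srsf2 promoter, shared with Mfsd11 (chr11:116852926-116853901), was the most open of the promoters at 116 and 107 peak CPM, and that of Sf3b1 (chr1:55027006-55027881) held 49.9 and 46.4. A peak in the Srsf2 window nearest to the coding gene Jmjd6 (chr11:116835970-116836844) was 3.25-fold [2.40 to 4.34] and 2.44-fold [1.93 to 3.05] higher in GMP-like nuclei.

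**Figure D3:**
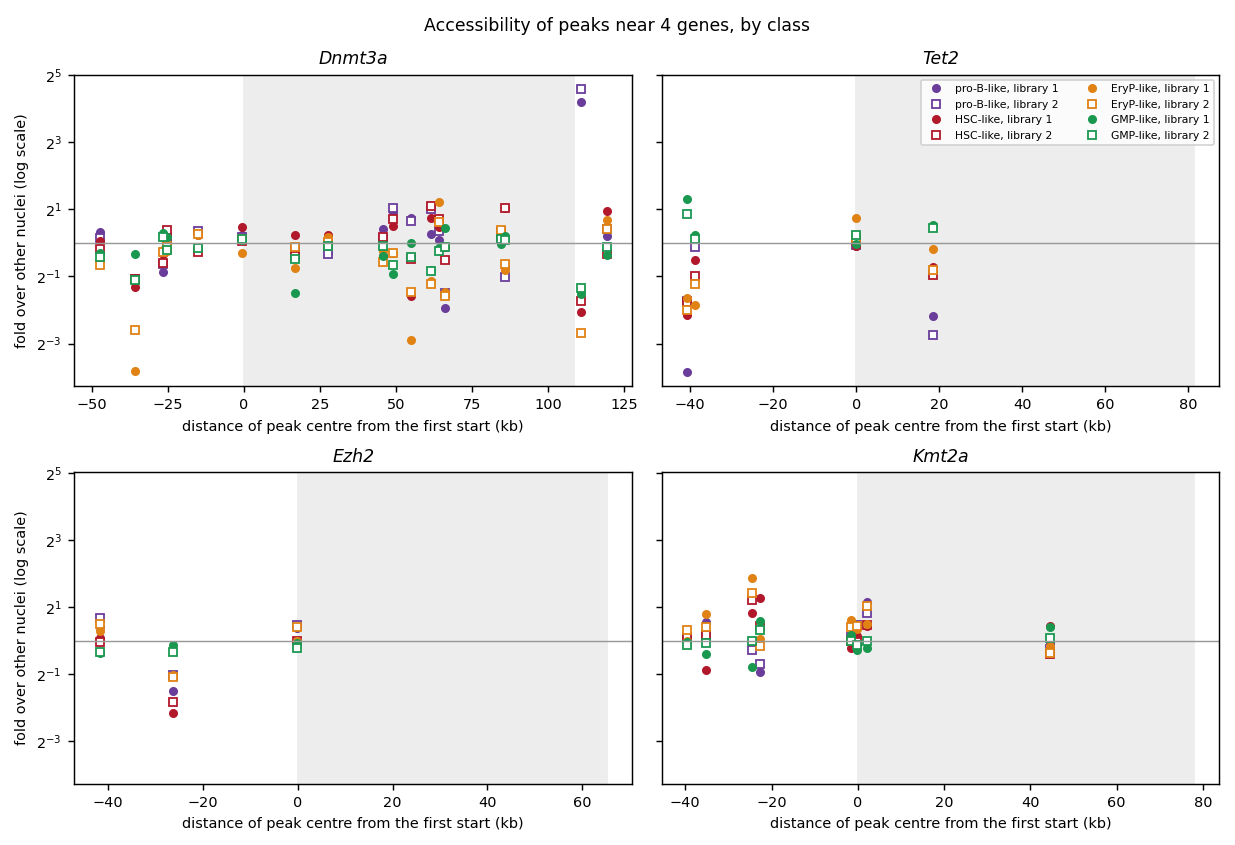
Fold of a class over other nuclei, on a log2 axis, for tested peaks near Dnmt3a, Tet2, Ezh2 and Kmt2a, by distance in kb of the peak centre from the first annotated start along the direction of the gene. Colours are 4 classes, filled circles library 1, open squares library 2 and the grey band the gene. The pro-B-like points of the Dnmt3a peak past the gene end stand at 18.4 and 24.2, and those of the Tet2 intron peak lie below 1.

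Peaks near the 9 genes were counted in the 5 well-sampled named classes in the same way. Of the 68 tested peaks, 2 were at least 2-fold higher in pro-B-like nuclei (background 5.63%), at Dnmt3a and Ppm1d, and 2 in EryP-like nuclei (background 2.02%), in the Trp53 and Kmt2a windows. GMP-like nuclei had 1 (background 1.53%), in the Srsf2 window, and LMPP-like nuclei had 0 (background 2.19%). At least 2-fold lower were 11 in pro-B-like nuclei (background 22.9%), with 3 at Asxl1 and 2 each at Dnmt3a, Tet2 and Srsf2, and 11 in EryP-like nuclei (background 20%), with 5 of them at Dnmt3a. HSC-like nuclei had 6 lower (background 10.4%), LMPP-like 2 (background 7.81%) and GMP-like 1 (background 3.19%). Between the libraries 2 of the 68 passed 1.5-fold (background 2.59%), the Dnmt3a intergenic peak at a ratio of 0.504 and the peak over the Efnb3 start in the Trp53 window at 1.51. The Dnmt3a intergenic peak was level within pro-B-like nuclei (40.5 and 45.1 peak CPM), whose share of nuclei was 17.6% in library 1 and 6.64% in library 2.

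**Figure D4:**
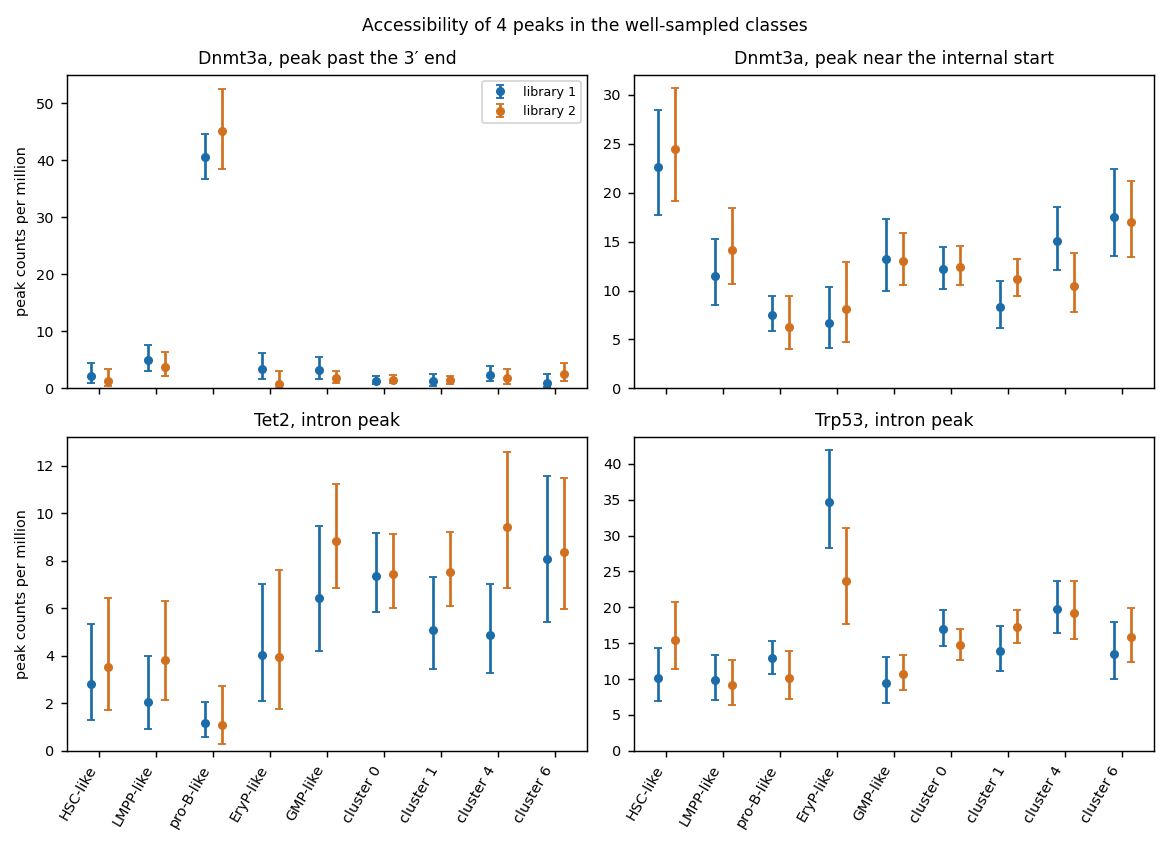
Peak CPM of 4 peaks, 2 at Dnmt3a and 1 each at Tet2 and Trp53, in the 9 classes with at least 200 nuclei per library, on linear axes from 0, library 1 in blue and library 2 in orange, with exact 95% counting intervals as bars. The Dnmt3a peak past the 3′ end reaches 40.5 and 45.1 in pro-B-like nuclei and stays at or below 4.97 in the other 8 classes.

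Lists of genes that work with the 9 were counted in HSC-like nuclei beside them. Of 10539 genes, 1030 were at least 1.5-fold higher and 843 at least 1.5-fold lower there in both libraries, with a median log2 fold of 0.09, and the 9 genes had a median of 0.03. Of 11 DNA methylation genes 2 were higher, Tet1 (2.52-fold and 4.98-fold) and Dnmt3b (2.27-fold and 1.98-fold), and 0 lower, with Mbd2 at 0.668 and 0.831 and Uhrf1 at 0.562 and 0.706. Tet1 and Dnmt3b, relatives of Tet2 and Dnmt3a with the same chemistry, passed in HSC-like nuclei, while Dnmt3a stood just short of 1.5-fold. The difference between them was not tested. Dnmt3a was left out of the clustering and Tet1 and Dnmt3b were not, so their folds are not on equal terms. Dnmt3a passed when the 9 genes and their peaks entered the clustering. The list's median was 0.02. Tet1 and Dnmt3b also passed in LMPP-like nuclei, at 2.94-fold and 2.29-fold and at 2.02-fold and 1.55-fold, the class in which Dnmt3a passed. Of 14 Polycomb and ASXL genes with enough UMIs 1 was higher, Bcor (1.66-fold and 1.75-fold), with Phf6 at 1.32 and 1.36, Jarid2 at 0.839 and 0.854 and Bcorl1 at 1.07 and 0.572.

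Of 13 genes of the KMT2A complex and its targets, 3 were higher in HSC-like nuclei, and Men1 was lower on 3 and 1 UMIs. Higher were Meis1 (7.06-fold and 6.55-fold, also a marker used to name the class), Hoxa9 (4.38-fold and 3.50-fold) and Ash2l (1.51-fold and 1.60-fold). Hoxa9 had larger folds in LMPP-like nuclei (6.19-fold and 4.86-fold), where Meis1 passed too (2.12-fold and 2.66-fold). Of 18 signalling and cohesin genes that are mutated in the same setting, 2 were higher, among them the stem cell factor receptor Kit (2.47-fold and 2.59-fold), and 0 lower, with Rad21 at 0.763 and 0.796 and Sh2b3 at 0.824 and 0.641. Of 13 p53 pathway genes 0 were higher, Sesn1 standing at 1.25 and 1.79 and Atm at 1.30 and 1.14, and 3 were lower, Bax, Bbc3 and Ccng1, each on 1 to 3 UMIs per library in HSC-like nuclei. Of 14 splicing genes 0 were higher and 1 lower, Ddx41, on 3 and 4 UMIs, with Sf3b2 at 1.29 and 1.48. Kit encodes the protein the cells were sorted for, and over all nuclei it stood at 242 and 157 CPM. Kit also passed in EryP-like nuclei (2.42-fold and 2.71-fold) and in cluster 6 (1.85-fold and 1.64-fold).

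**Figure D5:**
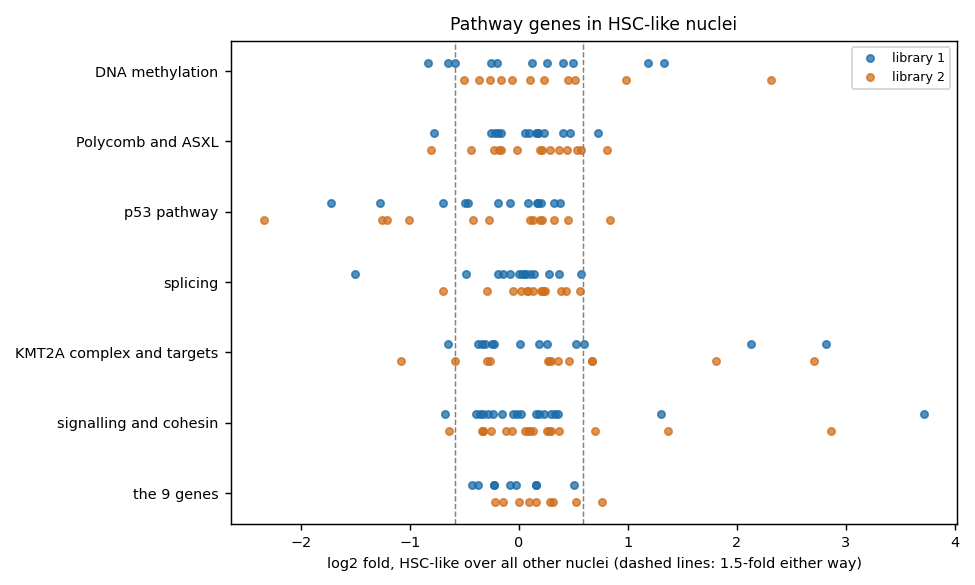
Log2 fold of HSC-like over all other nuclei for the genes of each list, 1 point per gene and library, library 1 in blue and library 2 in orange, with dashed lines at 1.5-fold either way and the 9 genes as the lowest list. No gene of the 9 lies past a dashed line in both libraries, while Meis1 and Hoxa9 of the KMT2A list and Tet1 and Dnmt3b of the DNA methylation list do.

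In pro-B-like nuclei, where Ezh2 and Kmt2a passed, the p53 list had 3 of 13 higher and 1 lower, beside 10.2% and 11.7% of all genes, with Trp53inp1 at 4.23-fold and 5.37-fold and the checkpoint kinase Chek1 at 1.69-fold and 2.04-fold. The DNA methylation list had 2 of 11 higher and 0 lower, the Polycomb list 1 of 14 and 0, the splicing list 0 of 14 and 0, the KMT2A list 2 of 13 and 1 (Meis1), and the signalling and cohesin list 1 of 18 (the cohesin subunit Rad21, 2.14-fold and 2.35-fold) and 1. List medians in that class were 0.13 for DNA methylation, 0.25 for Polycomb, 0.34 for p53, 0.18 for splicing, 0.12 for KMT2A and 0.22 for signalling, against 0.05 for all genes on the log2 scale. In EryP-like nuclei, where Trp53 passed, the p53 list had 0 of 13 higher and 2 lower (backgrounds 9.52% and 12.6%), Trp53inp1 on 7 and 2 UMIs and Cdkn1a on 8 and 1 UMIs.

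Genes with the most similar pattern were sought by Pearson r of log2(CPM + 1) over 26 values, the 13 named classes in both libraries, among 6662 genes whose CPM averaged 20 or more. The nearest were Bzw2 (0.79) and Mtf2 (0.77) for Dnmt3a, Trappc6b (0.90) and Tmem39a (0.90) for Tet2, Tars2 (0.84) and Phf2 (0.82) for Asxl1, Hsph1 (0.93) and Nfatc3 (0.90) for Trp53 and Plrg1 (0.86) and Hist1h3e (0.85) for Ppm1d. For the others they were Tbc1d32 (0.80) and Ciz1 (0.78) for Srsf2, Rfx3 (0.87) and Sema4d (0.83) for Sf3b1, Gars (0.84) and Ncapg2 (0.82) for Ezh2 and Klhl12 (0.80) and Rcl1 (0.79) for Kmt2a. The third gene by rank was Supv3l1 (0.75) for Dnmt3a, Plec (0.89) for Tet2, Nfya (0.81) for Asxl1, Gtf2i (0.89) for Trp53, Relb (0.81) for Ppm1d, Lsm7 (0.78) for Srsf2, Rsrc1 (0.81) for Sf3b1, Baz1b (0.79) for Ezh2 and Pdhx (0.78) for Kmt2a. The 9 genes were kept apart from the candidates, so likeness among them was not examined. Since small classes hold few UMIs, these values describe the classes at hand. Some small classes held no UMI and entered as 0. These were Tet2 in B cell-like nuclei of library 2, Trp53 in cMoP-like nuclei of library 1, and Ppm1d in BaP-like nuclei of library 1. Ppm1d was also 0 in B cell-like, cMoP-like, pDCP-like and pro-NK/T-like nuclei of library 2. How far the r values of these genes rest on such zeros was not tested.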

How the data were processed

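Single-nucleus multiome libraries (RNA and ATAC) of sorted mouse HSPCs were read from 1 deposited matrix that pools 1 Ctrl and 1 Lig sample. The deposited values are raw counts that the authors made with Cell Ranger ARC 2.0.0 on GRCm38 (mm10), UMIs for gene rows and transposase counts for peak rows. Per the labels no suffix belongs to a condition, so both libraries stayed in no group, and 0 per-sample columns were left unused. The study itself used Seurat 4.0.3 and Signac 1.3.0.

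Barcodes with at least 200 genes and 1000 to 50000 peak counts were kept, which left 5905 and 7714 nuclei. Seurat 5.3.0 (R 4.3.3) reduced RNA (2000 variable genes) to 30 principal components and ATAC to latent semantic components 2 to 30, corrected both between libraries with anchors, and clustered the joint neighbour graph at resolution 0.8. The 9 genes and their 158 peaks were left out of clustering. A cluster was named where at least 3 markers of a class were raised (log2 ratio 1 or more, on 10 or more counts). The mean log2 ratio of the whole marker list had to be 1 or more as well. At least 1 marker had to be among the cluster's 10 top genes, with no other list holding more of them. Names were rebuilt from markers and can differ from those of the study. Scrublet (scanpy 1.11.5) called 4 nuclei, 0.0294%, so it had not worked, and the 1028 nuclei with the top 8% of scores were left out as an alternative instead.

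Counts were summed per class and library. Intervals are exact Poisson intervals, on pairs of counts for ATAC since 82.5% of peak entries were even, and fold intervals come from the exact binomial of both counts. Both cover counting error only, and reads of nuclei from 1 pool are not replicates. With 1 sample per condition no test was run. A gene needed 50 UMIs and 1.5-fold in both libraries, a peak 1000 counts and 2-fold (1.5-fold between libraries). The fold computation was tested on simulated data. Gene models came from GENCODE, which matched 32145 of 32272 gene IDs. Named genes were the 9, the 2 largest and 2 smallest HSC-like ratios of each list, and the 3 most similar genes by pattern, apart from 1 list gene that is not reported here. Other genes of the lists that passed in another class were named after their values were seen. The 9 genes and the lists were chosen with earlier results of these data known, so they are no independent support. Shares of nuclei with a UMI are not reported.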

Additional observations from a re-analysis of the deposited data

How the results depend on the processing

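No paired analysis was possible because each condition has 1 sample and no test was run. Leaving out a replicate was not possible either. Between the libraries, the count of genes past 1.5-fold, 4 of 9, was 8 with all genes as the total (all but Srsf2, background 56.2%), 0 after median-of-ratios scaling (background 21.8%) and 0 at 2-fold (background 6.95%). The count at least 1.5-fold higher in HSC-like nuclei, 0, was 1 at 500 genes per nucleus, 1 with the limits on halved peak counts, 1 at resolution 0.4 and 1 when the genes and their peaks were clustered too, Dnmt3a each time. The 2-fold range over named classes, 8 of 9, fell to 5 at 500 genes (Dnmt3a, Ezh2, Ppm1d, Tet2 and Trp53). Peaks past 1.5-fold between libraries, 2, were 1 at 500 genes, 1 with halved peak counts, 1 when only peaks nearest to the gene counted (the Dnmt3a intergenic peak each time), 5 with 200 counts as the minimum, 0 within 10 kb and 0 when nuclei with a count were summed. Peaks 2-fold higher in HSC-like nuclei, 1, were 0 at 500 genes, 0 with halved peak counts, 0 at resolution 0.4, 0 when nuclei with a count were summed, and 2 with 200 counts, both at Dnmt3a. The cause of these changes was not tested. Of the counts under alternatives, 38 stayed within 1.5 times the value given and 19 did not. The RNA levels of the 9 genes moved too, to 0.468 to 0.570 times those given with all genes as the total. At 500 genes per nucleus they were 0.952 to 1.13 times those given. Promoter levels were 0.580 to 1.08 times those given when nuclei with a count were summed, and 0.978 to 1.01 times with limits on halved peak counts.

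Class folds were recomputed under alternatives chosen after seeing the data, taking the library nearer 1. Ezh2 in pro-B-like nuclei ran from 1.95 to 2.57 and stayed past 1.5-fold in 8 of 8, Trp53 in EryP-like nuclei from 1.56 to 1.80 in 8 of 8, and Dnmt3a in LMPP-like nuclei from 1.71 to 2.04 in 7 of 7, resolution 0.4 giving no LMPP-like class. Kmt2a in pro-B-like nuclei stayed past in 6 of 8, falling to 1.43 after median-of-ratios scaling and 1.44 at 500 genes, and Tet2 in 7 of 8, standing at 0.683 without correction between libraries. Depth limits Ppm1d most, with 7 to 63 UMIs per class and library.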
